A study of Mus musculus with 3 samples.

Results

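Intergenic regions enriched by NKX2-5 ChIP far from any protein-coding gene start were described in the embryonic mouse heart. They were selected from the peak lists of both NKX2-5 ChIP libraries. Peaks of the lists that overlapped by at least 1 bp were joined into shared regions, and the midpoint was taken as the centre of the overlap. A region was kept when its midpoint lay outside every gene body of GENCODE M1, more than 1 kb from any transcript start and more than 100 kb from the nearest protein-coding gene start. These criteria gave 397 of 2546 shared regions (15.6%, 95% Clopper-Pearson interval 14.2% to 17.1%), hereafter far intergenic regions. Since the scores and positions of the peaks chose them, scores, widths and distances are given as descriptions without a test, and intervals cover counting error only.

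In the cardiac lineage, the homeodomain protein NKX2-5 recognises sites with a short AAGTG core. Genes of heart development are often controlled by enhancers, short stretches of DNA that bind several transcription factors and act on promoters over long distances, also past genes that lie in between. GATA, T-box, MEF2 and TEAD proteins are among the factors that share cardiac enhancers with NKX2-5, and MEIS proteins recognise a TGACA core. A peak in such a list marks where chromatin was enriched. It does not show which gene, if any, the region acts on.

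The study mapped NKX2-5 by chromatin immunoprecipitation and sequencing (ChIP-seq) in hearts of E11.5 embryos of the Parkes strain, with 2 ChIP libraries, S1 and S4, and 1 Input library that was not analysed here. There was 1 condition, without treatment or mutation, and chromatin came from whole hearts, so the cell types behind a peak cannot be told apart. Each peak has a score of −10·log10 p from the peak caller, with a maximum of 3100 in both lists. Scores were not scaled between libraries, and as no read numbers were used here the depth of each library is unknown.

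Peaks in far intergenic sequence numbered 589 of 4418 in S1 and 702 of 5441 in S4. Of these, 399 S1 peaks (67.7%, 63.8% to 71.5%) and 396 S4 peaks (56.4%, 52.7% to 60.1%) had a partner in the other list, beside 58.9% and 47.0% of all peaks of S1 and S4. In S1, far peaks without a partner had a median score of 182 and those with one 293, and in S4 the medians were 176 and 343. The peaks without a partner were thus the lower ones in both libraries.

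Sequences of some regions are printed because the results below turn on short motifs and on how often they recur. They were picked among regions with the best ranks in both lists and regions that flank cardiac transcription factor genes. The choice does not represent how often the cores occur. Among windows of 151 bases that are not printed, several held neither core, such as those of the best-ranked region and of the highest regions of Id2 and Tead1. Within 100 bp of its midpoint the region of Id2 did hold TGACA. Each run is 151 bases of the mm9 plus strand centred on the midpoint. Capitals mark the AAGTG core of NKX2-5 sites (CACTT on the other strand) and the TGACA core of MEIS sites (TGTCA on the other strand).
region downstream of Hs3st3a1, chr11:64422487-64422637: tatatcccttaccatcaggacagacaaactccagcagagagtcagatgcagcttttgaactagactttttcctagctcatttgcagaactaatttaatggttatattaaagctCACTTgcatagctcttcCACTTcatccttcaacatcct
region downstream of Rngtt, chr4:33597487-33597637: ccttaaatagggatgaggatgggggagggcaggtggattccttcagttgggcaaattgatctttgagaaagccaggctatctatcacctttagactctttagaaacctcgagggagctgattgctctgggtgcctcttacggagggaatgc
region between Auts2 and Gatsl2, chr5:133861871-133862021: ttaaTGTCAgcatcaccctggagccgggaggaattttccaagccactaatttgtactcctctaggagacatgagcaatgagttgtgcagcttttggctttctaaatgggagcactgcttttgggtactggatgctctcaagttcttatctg
region upstream of Tbx18, chr9:87743850-87744000: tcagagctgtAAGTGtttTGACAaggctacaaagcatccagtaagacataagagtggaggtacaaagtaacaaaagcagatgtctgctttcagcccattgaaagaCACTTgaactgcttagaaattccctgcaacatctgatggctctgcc
region upstream of Hey2, chr10:30773136-30773286: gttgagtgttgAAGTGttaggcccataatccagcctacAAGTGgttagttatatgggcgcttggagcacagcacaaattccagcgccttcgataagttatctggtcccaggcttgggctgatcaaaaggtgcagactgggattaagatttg
region downstream of Sox9, chr11:112791806-112791956: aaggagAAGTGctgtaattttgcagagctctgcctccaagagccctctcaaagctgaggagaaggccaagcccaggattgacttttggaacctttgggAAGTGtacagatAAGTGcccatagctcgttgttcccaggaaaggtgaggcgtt
region upstream of Tbx3, chr5:119699508-119699658: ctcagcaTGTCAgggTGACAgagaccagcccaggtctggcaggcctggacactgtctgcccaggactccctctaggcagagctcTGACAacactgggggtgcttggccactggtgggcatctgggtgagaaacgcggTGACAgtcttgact

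Another set shows the site GTGNTGACA, in which GTG, the end of the AAGTG core, is followed, after any 1 base, by the MEIS core. The form was searched because the study reported, from the summits of its own peaks, a hybrid motif that both factors bound in vitro. These are the far intergenic regions of highest smaller score that hold it, each with 12 bases to either side and the site in capitals, read 5′ to 3′ on the strand named.
region between Olfr1505 and Tle4, chr19:14240465-14240497, plus strand: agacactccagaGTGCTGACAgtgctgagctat
region between Fermt1 and Bmp2, chr2:132964869-132964901, plus strand: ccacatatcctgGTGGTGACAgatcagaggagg
region upstream of Irx3, chr8:94511967-94511999, plus strand: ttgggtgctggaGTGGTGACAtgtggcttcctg
region downstream of Fut8, chr12:78584486-78584518, minus strand: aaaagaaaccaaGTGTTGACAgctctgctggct
region downstream of Lphn2, chr3:148097246-148097278, minus strand: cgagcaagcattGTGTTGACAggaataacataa
region downstream of Ttll7, chr3:146950610-146950642, plus strand: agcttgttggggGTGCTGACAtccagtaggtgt
region between Ednra and Ttc29, chr8:80512305-80512337, plus strand: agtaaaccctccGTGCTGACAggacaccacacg
region upstream of Foxq1, chr13:31384264-31384296, minus strand: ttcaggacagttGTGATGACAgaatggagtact
region downstream of Gm16833, chr9:9475656-9475688, plus strand: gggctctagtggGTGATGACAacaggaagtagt

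The scores of far intergenic regions ran from 140 to 3100 in both libraries. The median was 293 in S1 (quartiles 194 and 463) and 344 in S4 (227 and 573), beside 280.3 and 315 over all shared regions. S4 had the higher score at 248 of the 397 regions (62.5%, beside 60.6% of all shared regions). Scores lay within a factor of 2 of each other at 347 (87.4%, beside 85.7% of all shared regions). Across the 397 regions Spearman's rho of both scores was 0.70, beside 0.64 over all shared regions. These points share the cutoff of both lists, and far intergenic regions spread over the whole range of scores.

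**Figure D1:**
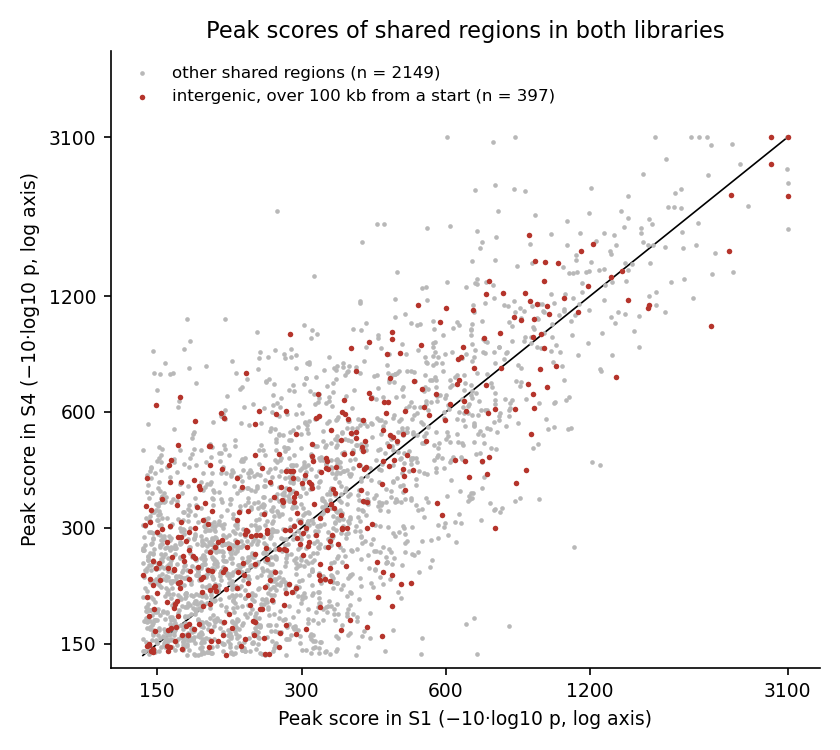
Peak score in S1 (x axis) against S4 (y axis) for each shared region, both as −10·log10 p on log axes, with the line of equal scores. The 397 far intergenic regions (red) lie among the 2149 other shared regions (grey) from the lowest scores to the maximum of 3100.

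At 18 far intergenic regions the score was at least 1000 in both libraries, out of 116 such shared regions of all classes. The region with the best ranks lay at chr17:39979600-39985943 and scored 3100 in both. Its width stood apart, at 6134 bp in S1 and 6344 bp in S4, where the median far region was 678 bp and 833 bp wide, and so did its composition, with 70.6% GC in the 201 bp around the midpoint. The nearest protein-coding start was that of Pgk2, which encodes a phosphoglycerate kinase of the testis, 363 kb away, but the start of the annotated pseudogene AY036118 lay 2.91 kb from the midpoint. What kind of sequence this wide region holds was not established here, and since the Input was not analysed, whether its enrichment depended on the NKX2-5 antibody was not tested. It held neither the AAGTG nor the TGACA core within 100 bp of the midpoint.

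The next regions were of ordinary width. The region 174 kb downstream of the start of Hs3st3a1, a sulfotransferase that modifies heparan sulfate, scored 2858 in S1 and 3100 in S4, and a neighbour 9.72 kb away scored 1397 in both. A region 200.3 kb downstream of the start of Rngtt, the mRNA capping enzyme, scored 2867 in S1 and 2646 in S4. The former held the AAGTG core at 3 places within 100 bp of its midpoint, as the sequence shows in part, while the latter held it at 1 place. Between Auts2, a nuclear protein known from neural development, and Gatsl2, a region 843 kb and 714 kb from either start scored 2360.2 in S1 and 2199.9 in S4.

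A region between the olfactory receptor gene Olfr1505 and Tle4, a corepressor of the Groucho family, scored 3100 in S1 and 2184 in S4. The region 118 kb upstream of Tbx18, a T-box factor of the sinus venosus and epicardium, scored 2346 in S1 and 1573 in S4. It carried the AAGTG core and the TGACA core 3 bases apart, as well as a second AAGTG core on the other strand. The best 10 regions also held a region 412 kb downstream of the start of Zfp521, a zinc finger factor, with 1216 in S1 and 1636 in S4. The remaining members of the best 10 were a region 157 kb from Rap1gds1 (1150.25 in S1 and 1567 in S4) and one 108 kb upstream of Lnx1, a ubiquitin ligase (1329.5 in S1 and 1346 in S4).

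The stretch covered by both peaks had a median of 620 bp, beside 627 bp over all shared regions. At 376 regions (94.7%) the overlap took in at least 50% of both peaks, beside 90.7% of all shared and 93.7% of far intronic regions. Median GC in the 201 bp around the midpoint was 47.8%, beside 49.8% in near intergenic, 48.3% in far intronic and 54.7% in promoter regions. No CpG was found there in 58 far intergenic regions (14.6%), beside 11.52%, 12.3% and 1.83% of these classes. Exact repeats of 32-base words were scarce at the midpoints. In 377 regions (94.96%, beside 93.4% of all shared regions) every 32-base word of this window occurred once in the mm9 assembly, and in 1 region fewer than 50% of the words did, a region of chromosome 7 scoring 194 in S1 and 260 in S4. The wide region on chromosome 17 was among those whose words all occurred once. Copies that the assembly lacks, or that differ in sequence, are not counted in this way, so the count does not show that a sequence is single in the genome.

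The AAGTG and TGACA cores, the shortest of the motifs searched, were the commonest both in the regions and in the windows to the side. AAGTG occurred within 100 bp of the midpoint in 268 far intergenic regions (67.5%, 62.7% to 72.1%), beside 64.0% of all shared regions and 41.8% of 794 windows of equal length 2 kb to either side. The longer form TNAAGTG, which contains AAGTG, was found in 36.3% (31.5% to 41.2%), beside 32.4% of all shared regions and 13.0% of the windows to the side. TGACA occurred in 70.3% (65.5% to 74.7%), beside 64.7% and 43.6%. AAGTG was found at 2 or more places in 124 regions (31.2%), against 9.32% of the windows to the side.

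Of the 10 motifs, the spaced form GTGNTGACA had the largest ratio between regions and the windows to the side. The study had reported a hybrid motif from the summits of its own peaks, and the form was chosen with that known. The ratio is therefore a description and not an independent finding. GTGNTGACA was present in 43 far intergenic regions (10.8%, 7.95% to 14.3%), beside 9.54% of all shared regions, and in 0.504% of the windows to the side. In contrast, the direct fusion AAGTGACA, which contains both cores, was rare, with 1.51% of the regions, 2.36% of all shared regions and 1.13% of the windows to the side. Both AAGTG and TGACA were present in 185 regions (46.6%), beside 44.0% of all shared regions and 19.9% of the windows to the side. Neither was held by 35 regions (8.82%), beside 15.3% of all shared regions. TNAAGTG or GTGNTGACA was found in 177 (44.6%), beside 39.1% of all shared regions, and 10 regions (2.52%) held both, beside 2.79%.

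Among motifs of other cardiac factors, the GATA site AGATAA occurred in 21.9% of far intergenic regions (17.9% to 26.3%), beside 19.0% of all shared regions and 13.98% of the windows to the side. AGGTGT, a T-box site, was found in 15.4%, beside 13.7% and 9.57%. CATTCC, the TEAD site, was found in 14.1%, beside 15.1% and 10.3%. The MEF2 site was found in 1.76%, beside 2.12% and 0.504%. AGGGGGC, a core of sites for the insulator protein CTCF, was found in 1.76% of the regions and 1.76% of the windows to the side, beside 3.50% of all shared regions. All searches used exact matches on both strands, and a match is a description of sequence.

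Motif content was then compared between classes, because the motifs played no part in choosing the regions. The first comparison was with the 599 intergenic regions up to 100 kb from a protein-coding start, by a two-sided Fisher's exact test for each of 10 motifs. No motif passed after Benjamini-Hochberg adjustment, and none had an unadjusted p under 0.05. TNAAGTG occurred in 36.3% against 33.6% (exact test, odds ratio 1.13, 95% interval 0.856 to 1.48, adjusted p = 0.980) and GTGNTGACA in 10.8% against 11.52% (exact test, odds ratio 0.933, 0.607 to 1.42, adjusted p = 1). For TGACA the shares were 70.3% against 65.9% (exact test, odds ratio 1.22, 0.921 to 1.62, adjusted p = 0.833). Each of these intervals includes odds ratios on both sides of 1.

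The second comparison was with the 301 intronic regions more than 100 kb from a protein-coding start, which share the distance but lie in a gene body. Again no motif passed after adjustment, and 2 had an unadjusted p under 0.05. AGATAA was found in 21.9% of the far intergenic and 15.6% of the far intronic regions (exact test, odds ratio 1.52, 1.01 to 2.30, p = 0.0415, adjusted p = 0.207). AAGTGACA was found in 1.51% and 4.32% (exact test, odds ratio 0.340, 0.105 to 0.974, p = 0.0328, adjusted p = 0.207). TNAAGTG was at 36.3% and 37.9% (exact test, odds ratio 0.934, 0.677 to 1.29, adjusted p = 0.866). These tests count regions, which are not replicate samples.

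**Figure D2:**
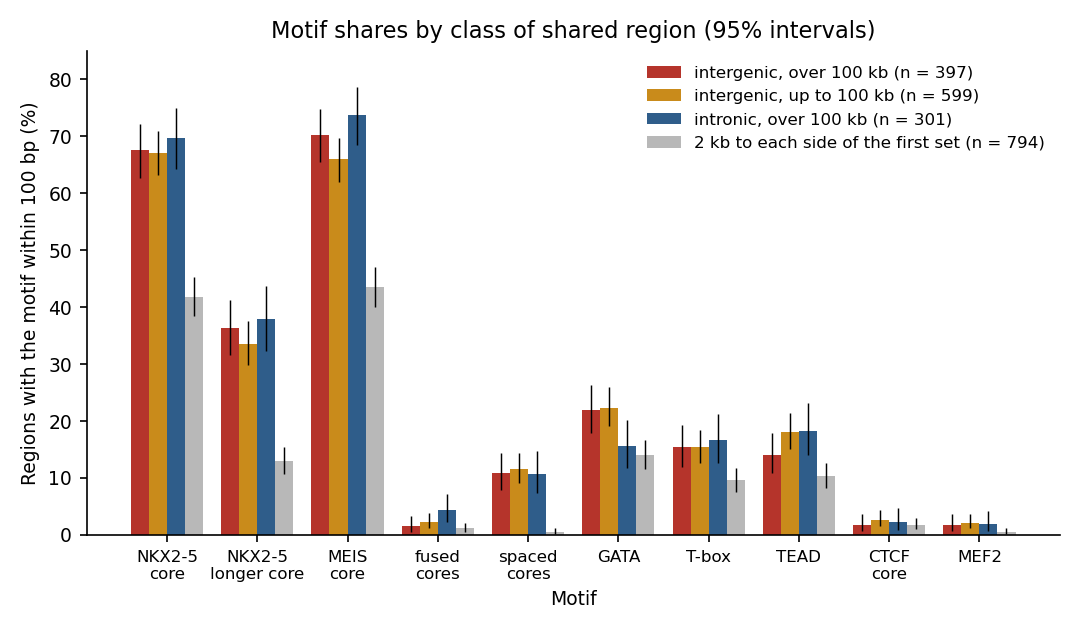
Percent of regions with each motif within 100 bp of the midpoint (bars from 0, with 95% Clopper-Pearson intervals) in far intergenic, near intergenic and far intronic shared regions and in windows 2 kb to either side of the far intergenic ones. The bars of the shared classes overlap in their intervals for both NKX2-5 forms, while the windows to the side are lower, at 41.8% and 13.0%.

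The sites of both forms gathered near the midpoint. Since the study had reported related motifs from the summits of its own peaks, this is a description and not an independent finding. TNAAGTG sites fell at a mean of 10.96 per 100 far intergenic regions and 50 bp within 100 bp of the midpoint, and 2.997 beyond 500 bp. For GTGNTGACA the means were 2.90 and 0.252. In near intergenic regions the corresponding means were 10.4 and 3.09 for TNAAGTG and 3.17 and 0.2003 for GTGNTGACA. The highest bin of far intergenic regions lay in the 50 bp to the left of the midpoint for both motifs, with 11.6 and 3.78 sites per 100 regions. The 50 bp to the right held nearly as many, 11.3 and 3.53.

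**Figure D3:**
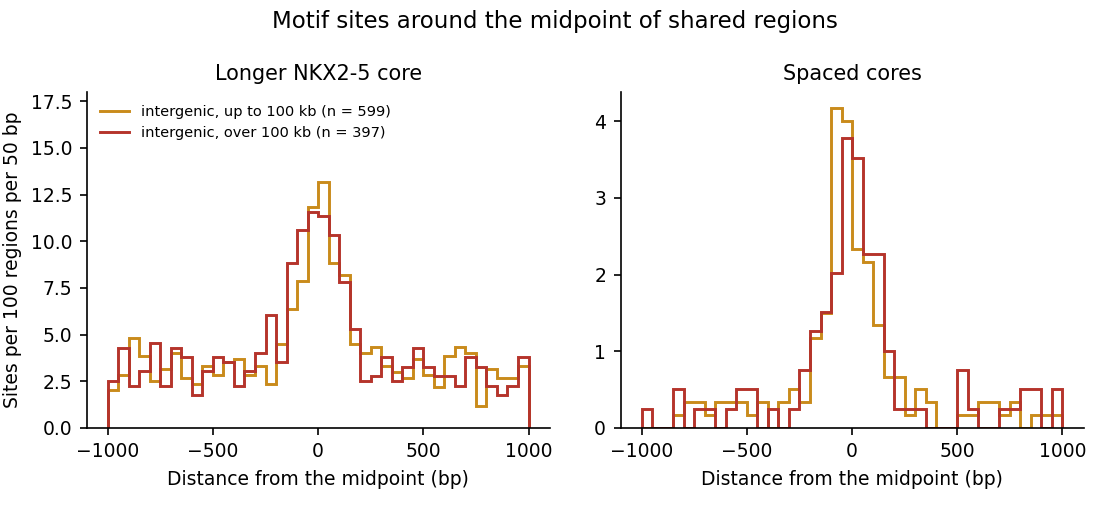
Number of TNAAGTG sites (left, longer NKX2-5 core) and GTGNTGACA sites (right, spaced cores) per 100 regions in bins of 50 bp, against the distance from the midpoint in bp. In far intergenic regions (red, n = 397) the counts rise from a mean of 2.997 and 0.252 beyond 500 bp to 11.6 and 3.78 at the peak, and near intergenic regions (gold, n = 599) follow the same course.

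The 43 far intergenic regions with GTGNTGACA held 45 sites, 23 on the plus and 22 on the minus strand, and 29 of the sites lay within 50 bp of the midpoint. At the open position A was found at 9 sites, C at 12, G at 10 and T at 14. The base after TGACA was G at 25 sites (55.6%), as in the sequences of Fut8, Lphn2 and Foxq1 above, beside 58.7% of the 254 sites in all shared regions. The base before GTG was most often G, at 23 sites (51.1%), beside 37.8% of the 254 sites in all shared regions. It was A at 12 sites, and a full AAGTG core began the site at 6. Most of the spaced sites thus lacked the complete AAGTG core, and which factors bind them was not tested.

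Median scores were set beside motif content. Regions with GTGNTGACA had a median of 297 in S1 and 383 in S4, and those without it 292 and 341. With TNAAGTG the medians were 291 and 376, and without it 293 and 324. When the regions were ordered by the smaller of their scores, TNAAGTG was found in 41 of the lowest 99 (31.6% to 51.8%) and 36 of the highest 100 (26.6% to 46.2%). GTGNTGACA was found in 13 of the lowest (7.18% to 21.4%) and 16 of the highest (9.43% to 24.7%). The intervals of the lowest and highest regions overlapped for both motifs.

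Among the regions with the spaced site, that of Olfr1505 and Tle4 had the highest scores. Next came a region 245 kb downstream of the start of Fut8, the enzyme of core fucosylation, with 1189 in S1 and 1274 in S4. The region between Fermt1, an integrin activator, and Bmp2, a ligand of the BMP pathway that acts in the atrioventricular canal, scored 1582 in S1 and 1117 in S4. It lay 193 kb upstream of Fermt1 and 413 kb upstream of Bmp2. A region 555 kb downstream of the start of the adhesion receptor gene Lphn2 scored 2150 in S1 and 1005 in S4, more than a factor of 2 apart. The region 186 kb upstream of Irx3, an Iroquois factor of the conduction system, scored 859.6 in S1 and 1039 in S4.

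Distances to the nearest protein-coding start had a median of 215 kb (quartiles 150.3 kb and 352 kb). The start lay 100 to 200 kb away at 187 regions (47.1%), 200 to 500 kb at 169 (42.6%), 500 to 1000 kb at 38 and over 1000 kb at 3. Median scores were 284 in S1 and 375 in S4 in the first of these bins, 302 and 329 in the second, and 282 and 301 in the third. TNAAGTG occurred in 35.3% (28.5% to 42.6%), 35.5% (28.3% to 43.2%) and 47.4% (30.98% to 64.2%) of them. GTGNTGACA occurred in 8.56%, 11.8% and 18.4%, where the last share rests on 7 of 38 regions (7.74% to 34.3%). None of the 3 regions beyond 1000 kb held TNAAGTG or GTGNTGACA, which with so few regions allows a share of up to 70.8% for either, and the wide intervals of the third bin overlap the others.

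The distance limit itself fell in a continuous series. The members just inside it were a region 100.1 kb upstream of Slc7a14 (961 in S1 and 880.1 in S4), one 101 kb upstream of Odz3 (638 and 725) and one 102 kb upstream of Tars (149.8 and 293). The regions just outside lay 99.0 kb from Gm7292 (321 in S1 and 739 in S4), 98.2 kb from Cdc7 (194 and 395) and 97.8 kb from Tomm20 (527 and 422).

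The farthest region lay 2081 kb upstream of Cdh20, a cadherin gene, and scored 893 in S1 and 708 in S4. The others of the 5 farthest were 1211 kb from Diap3, 1051 kb from Stim2, 966 kb from Igsf11 and 964 kb from Epha4. Their scores were 289.95 in S1 and 304 in S4, 662 and 605, 363 and 163, and 154 and 357. The region beyond Igsf11 was the one of this group with S4 below S1 by more than a factor of 2, and that of Epha4 had S4 above S1 by as much. The region of Cdh20 held 2 TGACA cores within 100 bp of its midpoint and no AAGTG.

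Starts of other kinds of genes were closer. At 270 of the 397 regions a non-coding gene start, pseudogenes included, was nearer than the nearest protein-coding one, most often that of a small nuclear RNA (56), a pseudogene (51) or a small nucleolar RNA (50), and a long intergenic non-coding RNA at 17. An annotated start of any kind lay within 100 kb at 152 regions and within 10 kb at 21. The nearest protein-coding gene had its start facing the region, so that the region lay upstream of it, in 203 cases (51.1%, 46.1% to 56.2%), and 194 regions lay downstream of the start.

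Far intergenic sequence that met the distance and annotation criteria made up 766 Mb, or 30.0% of the assembly outside gaps. Regions occurred at 0.519 per Mb of it. By chromosome the density ran from 0.318 per Mb on chromosome 14 to 0.902 per Mb on chromosome 18, apart from the X chromosome with 1 region in 55.9 Mb. Chromosome X held 16 of all 2546 shared regions. Chromosomes 1 and 3 held the most far intergenic regions, with 41 and 37.

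The 397 regions fell into 272 intervals between neighbouring protein-coding genes. These were 21.5 kb to 4520 kb long, with a median of 650 kb, and the shortest lay between Tspan5 and Rap1gds1. The criteria set a distance to gene starts, so a region can lie close to the end of a gene. An interval held a single region in 200 cases, and 27 intervals with 3 or more held 107 regions (27.0%). Another far intergenic region lay within 100 kb of 105 regions (26.4%, 22.2% to 31.1%), and the closest pair of midpoints was 1.10 kb apart. The interval between Slc4a3, an anion exchanger of heart muscle, and Epha4, an ephrin receptor of cell guidance, held the most, with 10 regions over 1613 kb. Its highest region lay 521 kb from Slc4a3 and scored 961 in S1 and 1312 in S4, and a neighbour at 477 kb scored 599.9 and 1116. The other 8 scored between 154 and 410.1 in S1 and between 165 and 421 in S4. AAGTG was found in 8 of the 10 regions.

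Intervals with 6 regions lay between Zfp608 and Gramd3 and between Auts2 and Gatsl2. In the former all scores were moderate, between 172 and 353 in S1 and between 167 and 426 in S4, and the nearest start was that of Zfp608, a zinc finger gene, at all 6. In the latter, scores ran from 164 to 2360.2 in S1 and from 152 to 2199.9 in S4. Hence a dense interval did not always hold a high peak. Intervals with 5 regions lay between Sulf2 and Prex1, between Agtr1b and Tbl1xr1, between Stim2 and Pcdh7 and between 4931429L15Rik and Cadm1. In the interval beside Cadm1, a cell adhesion gene, 3 regions scored at least 721 in S1 and 790.25 in S4, the highest being 116 kb upstream with 1595 and 1136. Just 1 of these 5 regions held AAGTG, whereas 4 held TGACA.

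**Figure D4:**
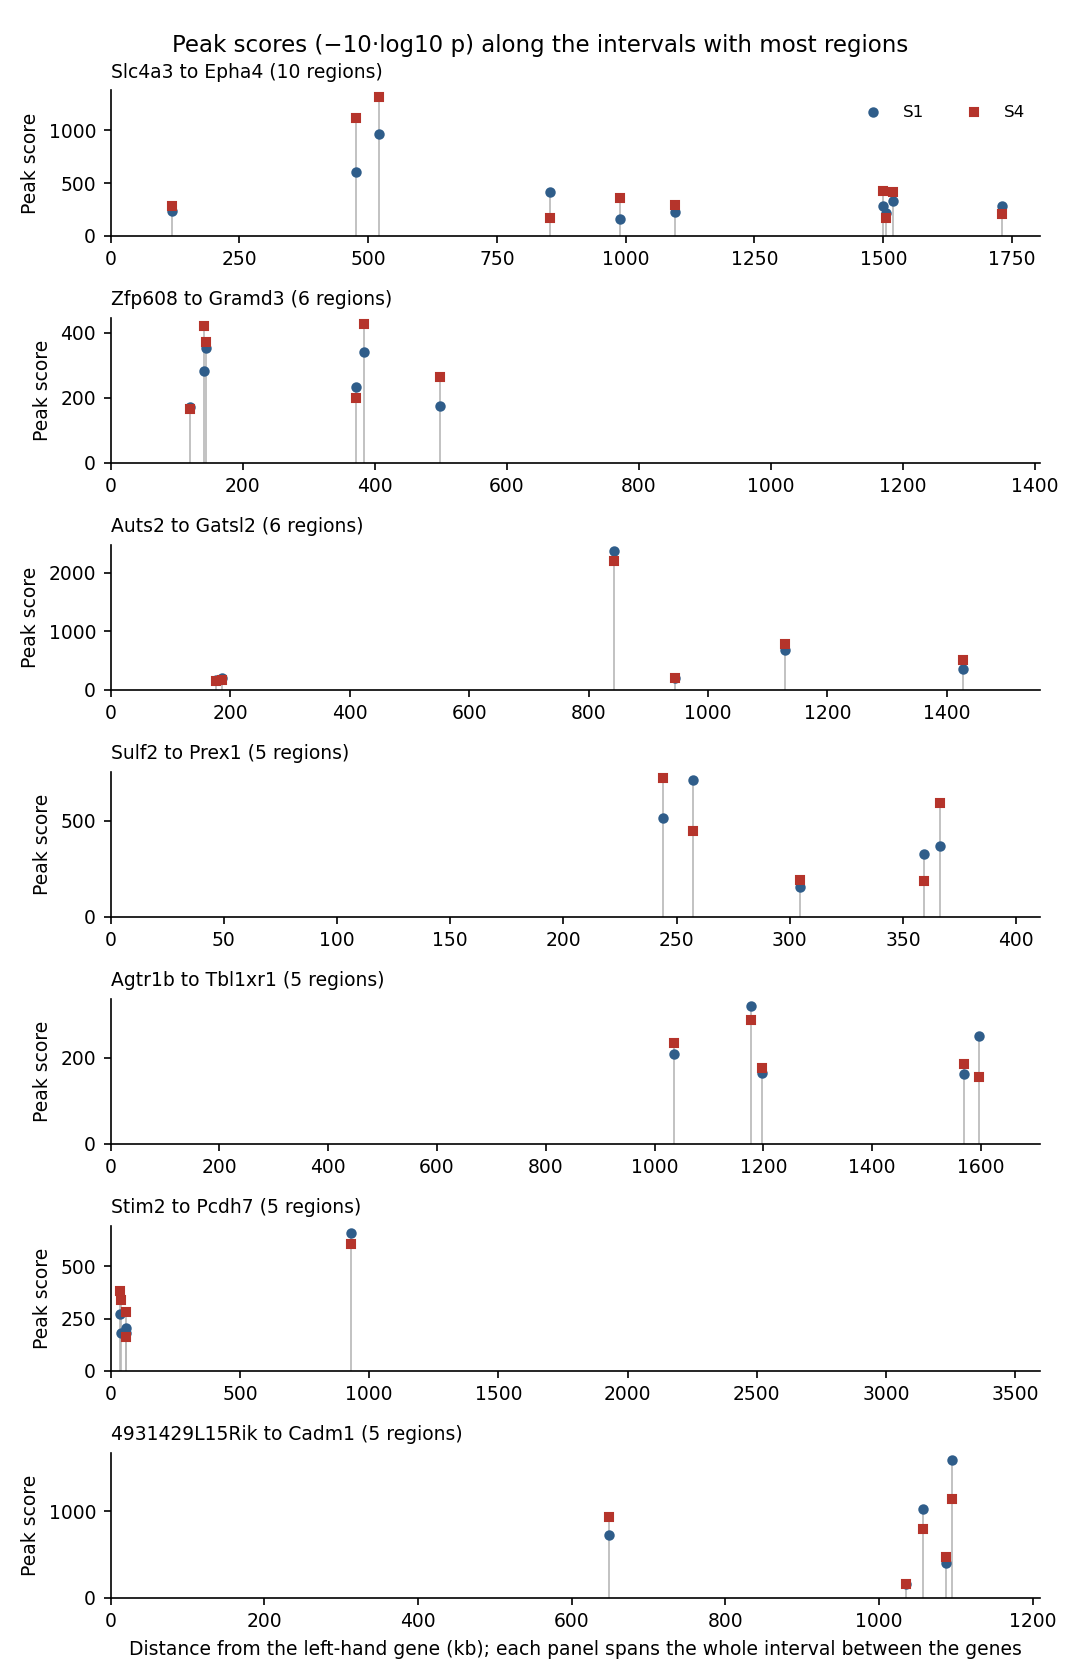
Peak scores (−10·log10 p) in S1 (blue circles) and S4 (red squares) of the far intergenic regions in the 7 intervals with at least 5, against the distance in kb from the left-hand gene. Regions between Slc4a3 and Epha4 spread over 1613 kb with 2 high peaks side by side, and those between Stim2 and Pcdh7 lie towards Stim2.

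Neighbouring genes were examined with 5 lists of cardiac genes, taking as neighbours the nearest protein-coding starts on either side. Of 99 listed genes that border far intergenic sequence, 42 (42.4%, 32.5% to 52.8%) flanked a far intergenic region, beside 527 of 3424 (15.4%) of all such genes. Listed genes also bordered more of this sequence, a median of 423 kb beside 183 kb. Regions per Mb of it numbered 1.08 around listed genes and 0.519 over all of it. The lists were drawn up with earlier results of these data known, and no test was made. Altogether 78 regions had a listed gene as neighbour, and it was the nearest one at 45.

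Transcription and RNA regulators of the heart had the largest share, with 18 of 35 (51.4%, 34.0% to 68.6%). Signalling genes had 11 of 27 (22.4% to 61.2%), and adhesion, matrix and guidance genes 8 of 22 (17.2% to 59.3%). Connexins and ion channels had 3 of 8 (8.52% to 75.5%), and contractile and calcium handling genes 2 of 7 (3.67% to 71.0%). The intervals of all lists overlapped. Tbx18 had the highest region, described above, and a second one 123 kb away. Id2, an inhibitor of helix-loop-helix factors, had 3 regions, the highest 198 kb upstream with 1059.9 in S1 and 1187 in S4. The other regions of Id2 scored 232 in S1 and 331 in S4, and 198 and 268, below the medians of 293 and 344.

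The zinc finger factor Sall1 had a region 128 kb downstream of its start that scored 900.3 in S1 and 1166 in S4, but Rps6-ps2 was nearer. For Hey2, a repressor in the Notch pathway that acts in ventricular muscle, 2 regions were found, the higher 211 kb upstream with 583 in S1 and 1025 in S4. That region held 2 AAGTG cores in the printed window. Gata6, a zinc finger factor of heart and endoderm, had 2 regions, the higher 321 kb downstream of its start with 463 in S1 and 929 in S4. Tbx20, needed for chamber growth, had 3 regions between 114 kb and 200.2 kb from its start. The highest, with 736 in S1 and 596 in S4, was nearer to Gm10181.

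The cardiac factors that follow had lower regions by the smaller of both scores. Tbx3, a repressor of the conduction system, had 2 regions, the higher 421 kb upstream with 464 in S1 and 226 in S4, and its window held 4 TGACA cores and no AAGTG. Mef2c had 2 regions, both nearer to Cetn3, one 1444 kb upstream (229.8 in S1 and 758 in S4) and one 1065 kb upstream (234 and 189.6), where 55.9% of the 32-base words occurred once. The region 148 kb downstream of the start of Sox9, a factor of valve mesenchyme, scored 740.02 in S1 and 459 in S4 and held 3 AAGTG cores. Myocd, the coactivator myocardin, had a region 152 kb upstream with 269 in S1 and 264 in S4. Meis1 had a region 633 kb upstream with 175 in S1 and 232 in S4, nearer to Spred2. For Meis1 and Myocd, then, both scores were below the medians of the far intergenic regions.

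Among signalling genes, Fgf9, an epicardial and endocardial growth factor, had 3 regions, the highest 229.99 kb downstream of its start with 921 in S1 and 1476 in S4. Nrg1, the neuregulin of trabeculation, had a region 543 kb downstream of its start with 1360 in S1 and 739 in S4, but Fut10 was nearer. Jag1, a Notch ligand, had one 306 kb upstream with 404 in S1 and 573 in S4. The region of Tgfb2, a ligand of cushion development, was low, with 168 in S1 and 311 in S4. Robo1 and Robo2, receptors of Slit ligands, flanked the same region, which scored 374 in S1 and 299 in S4. In its window 62.9% of the 32-base words occurred once.

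Muscle genes that bordered far intergenic sequence were few, 7 of the 36 on the list of contractile and calcium handling genes, and the 2 that flanked a region (28.6%, 3.67% to 71.0%) stand beside 15.4% of all bordering genes. Ryr2, the calcium release channel of the sarcoplasmic reticulum, had a region 674 kb downstream of its start with 319 in S1 and 345 in S4. Nebl had one 839 kb away and nearer to Plxdc2, with 194 in S1 and 152 in S4. There 58.2% of the 32-base words occurred once. Of the channel and exchanger genes, Kcnj2 had a region 149 kb downstream of its start (396 in S1 and 436 in S4) and Kcnj3 one 271 kb upstream (481 and 855). Slc8a1, the sodium-calcium exchanger, had 2, the higher 1429 kb upstream and nearer to Pkdcc (381 and 530.3), where 76.5% of the words occurred once. Adhesion and matrix genes with several regions were Cadm1 and Pcdh7, each with 5, Flrt2 and Odz3, each with 4, and Lama4 with 3. The regions of Pcdh7 lay at least 2668 kb from its start and nearer to Stim2.

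**Figure D5:**
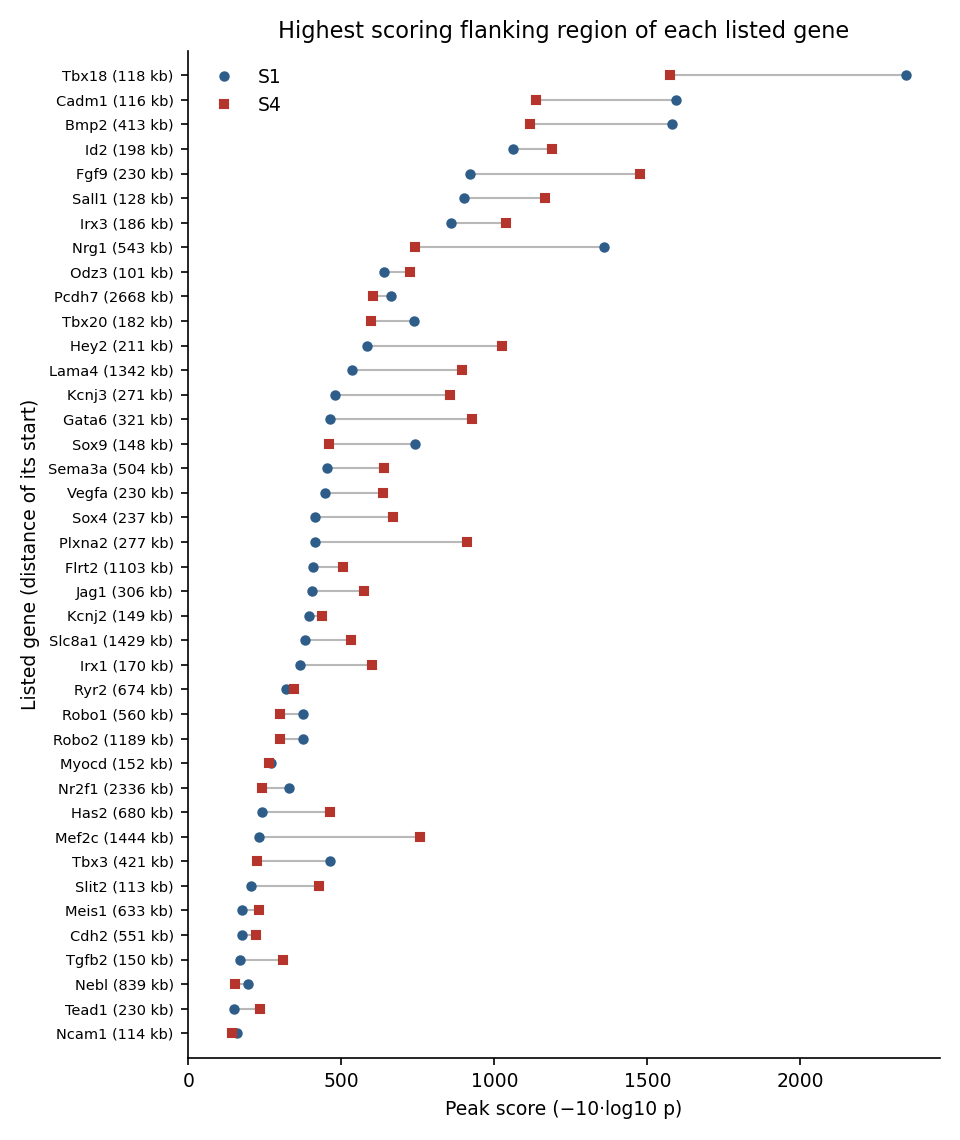
Peak scores (−10·log10 p) in S1 (blue circles) and S4 (red squares) of the highest scoring far intergenic region that flanks each of 40 listed genes, ordered by the smaller score, with the distance of the region from the gene start in brackets. Tbx18 is at the top, at 2346 and 1573, and Ncam1 at the bottom, at 158 and 144.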

How the data were processed

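NKX2-5 ChIP-seq was done on E11.5 mouse hearts in 2 libraries. Per the methods of the study, BOWTIE placed the reads on mm9 and MACS 1.4 called the peaks, while the submitters' processing notes also name CASAVA 1.4. The settings, and whether the Input served as control, are not given in the sources used here. A list of peaks for each library, not pooled, was deposited by the authors, with a score for each peak (−10·log10 p, from 140 upwards in both lists) and start and end positions. The replicates were not stated to come from separate litters or pools of hearts, so the spread between the libraries may be technical.

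Coordinates are counted from 1. Shared regions were connected overlaps of at least 1 bp, and a region with several pairs took the scores of the pair with the highest smaller score. Classes came from GENCODE M1 on NCBIM37. Motif shares were compared by Fisher's exact test with Benjamini-Hochberg adjustment over 10 motifs in each of 2 families. Regions are the unit of these tests, not animals. Words of 32 bases were counted on both strands of the assembly. The members, gene lists, motifs and tests were chosen with earlier results of these data known. Named regions were the 10 with the best worse rank, the 5 farthest, the 3 on each side of the limit, the intervals with most regions (ties at 5 included), the 10 highest with GTGNTGACA and the highest region of each listed gene. No sequence of chromosome 18 was printed, and some listed genes are not reported here by name. The procedures were tested on simulated data. Python 3.11.15 was used with numpy 2.4.6, scipy 1.17.1, pandas 2.3.3, pysam 0.24.0, numba 0.67.0 and matplotlib.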

Additional observations from a re-analysis of the deposited data

How the results depend on the processing

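The number of far intergenic regions followed its definition. Raising the score cutoff to 200 left 260. There were 210 (8.25% of shared regions) with a limit of 200 kb and 245 (9.62%) when starts of genes of any type counted. With a limit of 50 kb the share was 22.9%. Without 1 library, peaks of a single list numbered 589 to 702. An overlap of at least 50% gave 376. Motif shares within 25 bp and 250 bp of the midpoint were 22.4% and 89.9% for AAGTG, 10.1% and 55.7% for TNAAGTG, 28.2% and 91.4% for TGACA, and 3.78% and 17.6% for GTGNTGACA, since a window's length sets how many matches it can hold. Without 1 library the share was 64.4% to 67.1% for AAGTG, 32.5% to 36.2% for TNAAGTG, 68.9% to 69.1% for TGACA and 8.97% to 9.17% for GTGNTGACA.

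In 32 alternatives the odds ratios of these 4 motifs in far against near intergenic regions ran from 0.762 to 1.69, and none passed after adjustment over 10 motifs (smallest adjusted p = 0.0577, by Fisher's exact test). For TGACA the odds ratio stayed above 1 in all 8, with an unadjusted p under 0.05 in 2, at 250 bp (1.69, exact p = 0.0152) and at the midpoint of the S4 peak (1.48, exact p = 0.00577). The direction changed in 7. For AAGTG the odds ratio fell below 1 with 25 bp (0.922), 50% overlap (0.919) and the midpoint of the S1 peak (0.980). For GTGNTGACA it rose above 1 with 25 bp (1.20), 250 bp (1.06), a limit of 200 kb (1.22) and the midpoint of the S4 peak (1.08). The cause was not tested. Regions with a listed neighbour numbered 45 for the nearest start alone and 47 within 500 kb. No paired analysis was possible because there was 1 group. Depth was unknown, so peaks missing from 1 list may lie below its cutoff.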
